A study of Mus musculus with 6 samples.

Results

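The 10 genes described here encode the receptor complex, the adaptors and the feedback inhibitors of the Toll-like receptor 4 (TLR4) pathway, which paclitaxel (PTX) can engage in mouse cells. They are *Tlr4*, *Cd14*, *Ly96*, *Tlr2*, *Myd88*, *Ticam1*, *Irak1*, *Traf6*, *Nfkbia* and *Tnfaip3*, taken by name from the 21959 genes of the count table. RNA sequencing had been performed on MTC, a mouse gastric adenocarcinoma cell line, and on MTC-R, its PTX-resistant derivative, with 3 libraries per line. The sample titles and library names name no batch, so whether the lines were prepared together cannot be told from them. The sample labels call these lines MPC and MPC-PTX, give both the genotype CDH1-/-;Trp53-/-, and describe MPC as the untreated control and MPC-PTX as having had more than 30 cycles of PTX. MTC came from gastric organoids of C57BL/6 J mice with floxed alleles of both genes and the transgene Mist1-CreER, a tamoxifen-inducible Cre driven by the secretory-cell promoter Mist1, and the recombined organoids had been grown as a subcutaneous tumour in a nude mouse before the line was isolated. MTC had been expanded from single cells, and MTC-R was again taken through monoclonal selection, so the comparison is between 2 selected clones. Whether PTX was in the medium when RNA was taken is not given in the sources used here. No label says that the 3 libraries of a line came from separate cultures, so p-values measure the spread between these libraries, which may be technical.

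TLR4 is the receptor for bacterial lipopolysaccharide. It works as a complex with MD-2, the product of *Ly96*, which holds the ligand, while CD14 delivers the ligand to that complex, and PTX can bind mouse MD-2 as well. From the membrane the signal runs through the adaptor MyD88 to the IRAK kinases and the ubiquitin ligase TRAF6, or through the adaptor TRIF, the product of *Ticam1*, and ends in activation of NF-kB. NF-kB in turn induces its own inhibitors, among them IkBa (*Nfkbia*) and the ubiquitin-editing enzyme A20 (*Tnfaip3*).

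Total counts ranged from 16574580 to 23148182 per library, and 11795 genes passed the filter on low counts and were tested, all 10 pathway genes among them. The median log2 fold change of all tested genes, MTC-R over MTC, was 0.04. In bulk RNA such as this, fewer cells expressing a gene and less of its RNA per cell cannot be told apart. MTC replicate 3 stood apart from the other libraries, with a rank correlation of -0.61 between gene GC content and its deviation, so the values of named genes whose call changes without it are given both ways. The epithelial identity of the labels was checked first. All 8 epithelial markers were expressed, with a summed level of 9560 to 11080 CPM (counts relative to the scaled library total) in the MTC libraries and 5777 to 5963 CPM in the MTC-R libraries, and all 8 fell in MTC-R. *Krt8*, a keratin of simple epithelia, fell by 1.02 on the log2 scale and *Cldn4*, a tight junction claudin, by 1.13. Of 12 gastric markers, 10 had at most 25 counts in every library and *Tff1*, *Tff2*, *Gkn2* and *Pgc* were at 0 throughout. The gastric protease gene *Ctse* and the annexin gene *Anxa10* carried the list in MTC and fell from 275 ± 38.8 and 129 ± 34.2 CPM to 1.5 ± 0.35 and 0.32 ± 0.13 CPM in MTC-R (SD, n = 3). The third gastric marker tested, *Bhlha15*, which encodes Mist1, rose from 0.27 ± 0.03 to 0.88 ± 0.11 CPM (log2 fold change 1.68, adjusted p = 0.00761) on 5 to 22 counts per library.

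Since leukocytes carry much TLR4 and CD14, their markers were examined beside the pathway. Of 14 leukocyte markers, 13 had at most 25 counts in every library, among them the pan-leukocyte gene *Ptprc* and the macrophage genes *Adgre1* and *Csf1r*. The summed level was 12.5 to 13.9 CPM in MTC and 11.3 to 11.5 CPM in MTC-R, most of it from the lysosomal gene *Cd68*. *Cd68*, the only leukocyte marker tested, had a log2 fold change of -0.28 and was not called. Without MTC replicate 3 it was called lower, at -0.38. The fibroblast markers summed to 9.83 to 10.9 and 8.63 to 9.92 CPM, and the endothelial markers to 3.40 to 4.84 and 3.07 to 3.39 CPM. Of the 2 fibroblast markers tested, *Col1a1* had a log2 fold change of -0.80 (adjusted p = 0.00389) and *Pdgfra* of 0.36 (adjusted p = 0.121).

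NF-kB acts on DNA, so the promoters of the pathway genes were read for its recognition letters. RefSeq promoter windows (GRCm38.p6) were matched for 7 of the 10 genes, all but *Tlr4*, *Cd14* and *Ly96*. The letters GGNNNTTCC were searched on both strands in the 250 bases before each start, a choice made after the windows had been seen. They occurred in 15.7% of all 32851 windows, and at 2 or more positions in 1.46%. Of the 9 windows of the pathway genes, 4 held them. These belong to *Nfkbia*, *Tnfaip3* and *Tlr2*, whereas the windows of *Myd88*, *Ticam1*, *Irak1* and *Traf6* did not hold these letters. The window of *Nfkbia*, chr12:55492648-55492897 on the minus strand, lies wholly before the gene and is shown 5′ to 3′ because this feedback inhibitor has 3 matches, which are in capitals and begin 211, 178 and 29 bases before the start:

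Nfkbia: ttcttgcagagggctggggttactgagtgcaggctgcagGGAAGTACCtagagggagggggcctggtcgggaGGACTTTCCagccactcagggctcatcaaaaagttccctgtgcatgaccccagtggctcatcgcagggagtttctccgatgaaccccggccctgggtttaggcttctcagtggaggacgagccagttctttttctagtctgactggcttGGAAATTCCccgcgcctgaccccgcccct

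Short stretches are shown for the genes whose RNA differed between the lines, with the matched letters in capitals. In *Tnfaip3* (chr10:19015412-19015436, minus strand) 2 matches lie 24 and 12 bases before the RefSeq start, within the longer GENCODE gene model. In *Tlr2* (chr3:83841769-83841782, minus strand) matches on opposite strands overlap and begin 172 and 171 bases before the start. *Nfkbie* (chr17:45555593-45555605 and chr17:45555622-45555634, plus strand) and *Cxcl2* (chr5:90903801-90903813 and chr5:90903820-90903832, plus strand), a further inhibitor and a chemokine that NF-kB induces, have 2 matches each and are set beside them because their RNA rose in MTC-R:

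Tnfaip3: ctGGAATTTCCatcGGAAATCCCcc
Tlr2: tgGGGAATTCCCac
Nfkbie, upstream: agGGGGATTCCgg
Nfkbie, downstream: ccGGAAGCTCCtt
Cxcl2, upstream: agGGAATTTCCct
Cxcl2, downstream: cgGGCTTTTCCag

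A match describes the letters only. Among the genes shown, *Tnfaip3* was lower in MTC-R, *Tlr2*, *Nfkbie* and *Cxcl2* were higher, and the change of *Nfkbia* did not pass the test. *Nfkbie* and *Cxcl2* were picked for their rise, and other listed genes with these letters are not shown. How genes with these letters move cannot be read from this choice.

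All 10 genes were expressed in both lines, and their levels differed widely. Levels between genes are compared as CPM per kb of the longest coding transcript. The length of the sequenced fragments was not allowed for, so *Ly96*, with a transcript of 632 bases, may be understated beside longer genes. *Cd14* had by far the most RNA, with 194 ± 12.9 CPM per kb in MTC and 160 ± 2.1 in MTC-R (SD, n = 3), between the 96.6 and 97.3 percentiles of tested genes over the 6 libraries. *Irak1* came next, at 34.2 ± 1.24 and 29.5 ± 0.87 CPM per kb, and *Cd14* exceeded it 5.66 times in MTC and 5.41 times in MTC-R. The receptor itself stood at the other end: *Tlr4* was the lowest of the 10, with 3.43 ± 0.59 CPM per kb in MTC and 4.39 ± 0.23 in MTC-R.

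In MTC the order of levels was *Cd14*, *Irak1*, *Nfkbia*, *Tnfaip3*, *Myd88*, *Traf6*, *Ticam1*, *Ly96*, *Tlr2* and *Tlr4*. The libraries of *Nfkbia* and *Tnfaip3* overlapped, and so did those of each neighbouring pair from *Traf6* through *Ticam1* and *Ly96* to *Tlr2*. The order in MTC-R exchanged *Traf6* with *Ticam1*, whose libraries overlapped, and placed *Tlr2* above *Ly96*, where they did not overlap. *Nfkbia* and *Tnfaip3*, level within their spread in MTC, were apart in MTC-R, at 26.3 ± 0.55 and 18.6 ± 0.60 CPM per kb. *Ly96* and *Tlr4* overlapped in MTC-R, whereas in MTC *Ly96* had lain clearly higher, at 5.74 ± 0.86 against 3.43 ± 0.59 CPM per kb. The place of *Ly96* in both orders carries the limit of its short transcript given above.

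**Figure D1:**
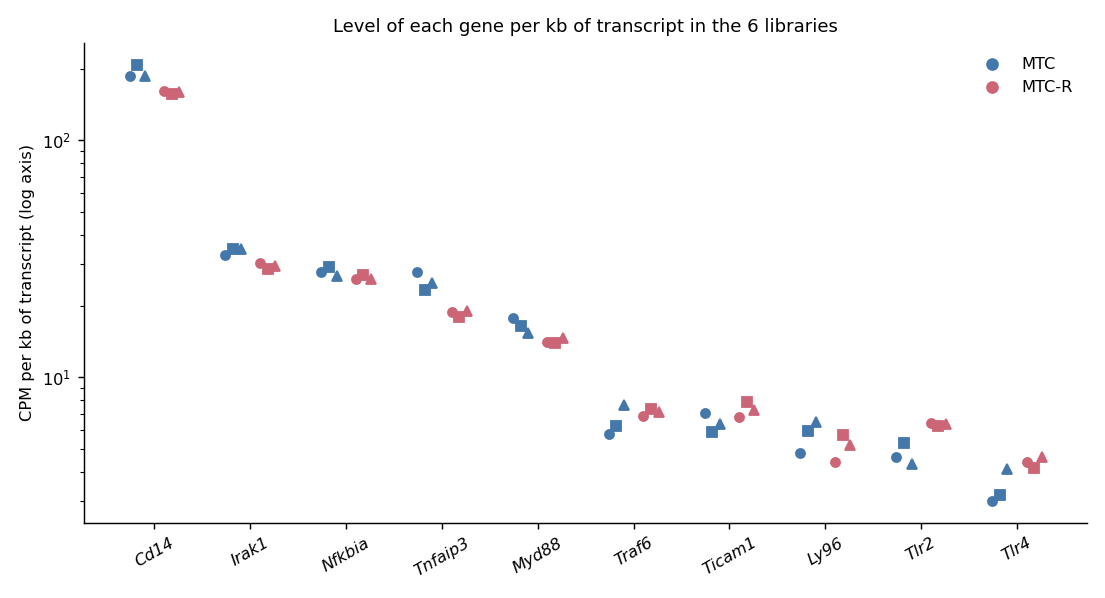
Level of each gene in CPM per kb of transcript, on a log axis, in the MTC (blue) and MTC-R (red) libraries, with circle, square and triangle for replicates 1, 2 and 3. *Cd14* sits at 157 to 209 in every library, and *Tlr4*, at the right, at 3.01 to 4.62.

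Between the lines, the pathway genes changed in both directions and by little. *Tlr2* rose in MTC-R, *Tnfaip3*, *Cd14* and *Irak1* fell, and the other 6 did not pass the test. These 4 of 10 genes (40.0%) compare with 29.7% of all tested genes called at an adjusted p below 0.05 by edgeR's quasi-likelihood test. Of all tested genes, 14.1% were called higher and 15.6% lower. A list of 10 is too short for a difference to be read from these shares. The study's methods ask for a log2 fold change beyond 1 in either direction together with an unadjusted p below 0.05. No pathway gene met that rule, which 8.11% of tested genes met. The largest absolute log2 fold change was 0.45, the median absolute value 0.22, and the median of all tested genes 0.24. The CPM of the libraries did not overlap between the lines for 6 genes, *Tlr4* and *Tlr2* higher and *Cd14*, *Myd88*, *Irak1* and *Tnfaip3* lower, beside 46.9% of all tested genes (24.2% higher and 22.7% lower).

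**Figure D2:**
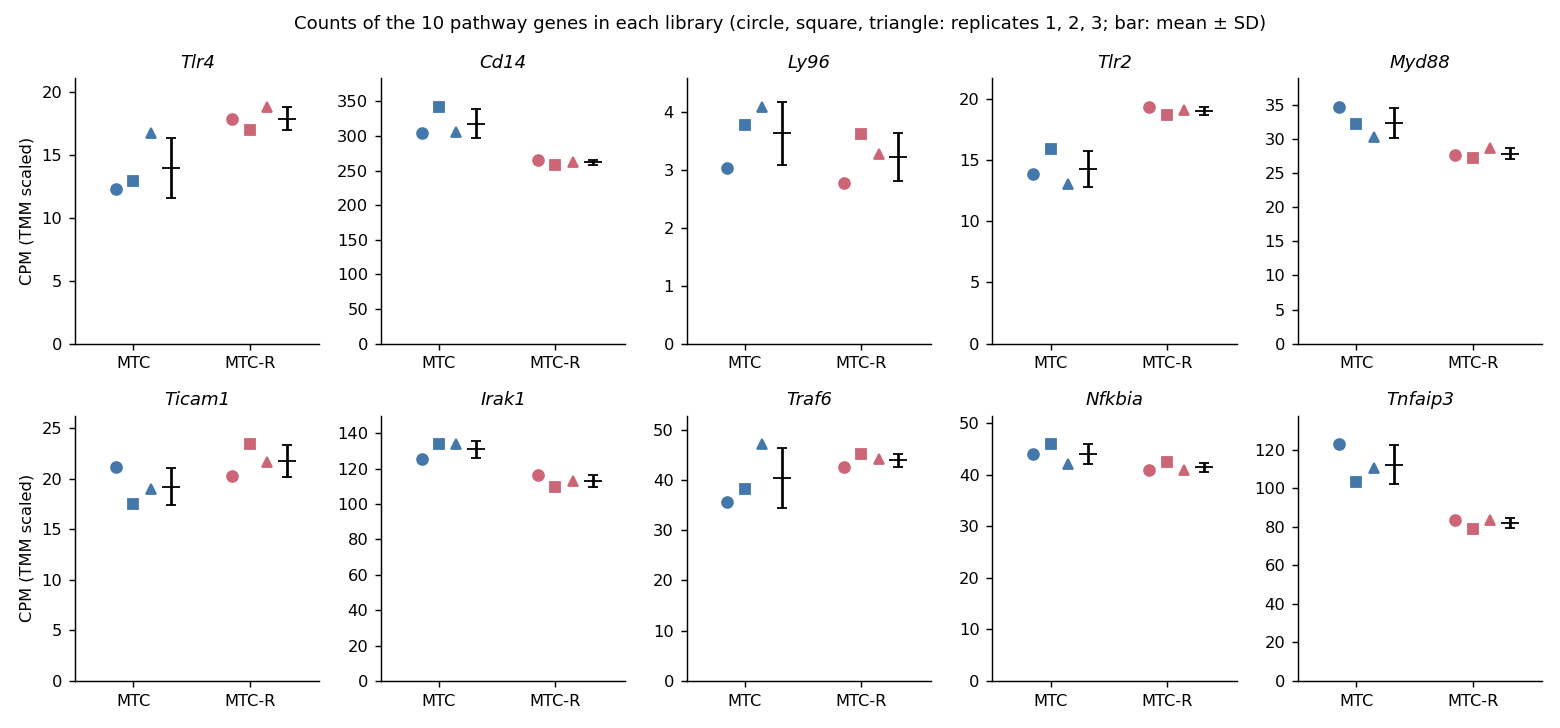
CPM of each of the 10 genes in the 3 MTC (blue) and 3 MTC-R (red) libraries, with the mean and SD as a black bar and every axis starting at 0. The MTC-R libraries lie above all MTC libraries for *Tlr4* and *Tlr2* and below them for *Cd14*, *Myd88*, *Irak1* and *Tnfaip3*, and they overlap for the other 4 genes.

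Of the receptor components, *Tlr4* (chr4:66827584-66930284, plus strand, GRCm38) had 12.3, 12.9 and 16.7 CPM in the MTC libraries and 17.9, 17.0 and 18.8 CPM in the MTC-R libraries. All MTC-R values lay above all MTC values, but the highest MTC library, replicate 3, came close to the lowest MTC-R library. The log2 fold change was 0.35 (SE 0.13, 95% interval 0.04 to 0.67) with an adjusted p of 0.0896, so the difference was not called. It was called without MTC replicate 3, at 0.45 (adjusted p = 0.00472), and it shrank to 0.13 (adjusted p = 0.312) once each library was corrected for GC content and transcript length. *Tlr4* transcripts have 39.4% GC, and MTC replicate 3 is the library with the strongest GC trend. Its part in the result was not tested beyond these fits.

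*Cd14*, the co-receptor anchored to the cell surface, had 305, 342 and 306 CPM in MTC and 265, 258 and 262 CPM in MTC-R. Every MTC-R library lay below every MTC library, and the MTC-R libraries were close to each other. The log2 fold change was -0.28 (SE 0.07, 95% interval -0.43 to -0.13, adjusted p = 0.0168), which is 1.21-fold lower. It kept its direction in all 14 alternatives and the call in 10 of them. The call was lost without MTC replicate 2 (adjusted p = 0.0579) and without any one MTC-R library (0.0714 to 0.0885).

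*Ly96*, which encodes MD-2, was measured on few reads, from 55 to 85 counts per library. It had 3.03, 3.76 and 4.08 CPM in MTC and 2.78, 3.61 and 3.27 CPM in MTC-R, and the lines overlapped. Its log2 fold change of -0.18 carried a 95% interval from -0.60 to 0.25 (adjusted p = 0.502), so the difference was not called.

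*Tlr2*, the receptor for bacterial lipoproteins, which shares CD14 and MyD88 with TLR4, had 13.9, 15.9 and 13.0 CPM in MTC and 19.4, 18.7 and 19.1 CPM in MTC-R. The lines were well apart. Its log2 fold change of 0.42 (SE 0.10, 95% interval 0.18 to 0.66, adjusted p = 0.0200), 1.34-fold higher, was the only rise called among the 10. The direction held in all 14 alternatives and the call in 11, with the exceptions being the fits without 1 of the MTC-R libraries (adjusted p = 0.0747 to 0.0865).

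With *Cd14* lower and *Tlr2* higher, the RNA ratio of co-receptor to receptor moved. Per kb, *Cd14* exceeded *Tlr2* 40.4, 39.6 and 43.2 times in the MTC libraries and 25.2, 25.3 and 25.2 times in the MTC-R libraries. The ratio of *Cd14* to *Tlr4* was 57.6 ± 10.7 in MTC and 36.4 ± 1.66 in MTC-R, and that of *Tlr4* to *Ly96* 0.599 ± 0.057 and 0.874 ± 0.136 (SD, n = 3). None of these ratios overlapped between the lines. Each gave a p of 0.1 in an exact two-sided permutation test, the smallest that 3 libraries against 3 allow. The ratios of *Cd14* to *Ly96* (exact permutation p = 0.7) and of *Tlr2* to *Tlr4* (exact permutation p = 1.0) overlapped. In all, 8 ratios were computed, and none can pass an adjustment over them in this design. All were taken from CPM without the correction for GC content and length. The difference of *Tlr4* was not called, and its log2 fold change was 0.13 with that correction, against 0.35 without it.

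Neither adaptor gene passed the test. *Myd88*, which serves all Toll-like receptors but TLR3 as well as the interleukin-1 receptors, had 34.8, 32.2 and 30.3 CPM in MTC and 27.6, 27.2 and 28.8 CPM in MTC-R. The lines did not overlap, and the log2 fold change was -0.22 (SE 0.08, 95% interval -0.42 to -0.02, adjusted p = 0.0954), which was not called. It was called without MTC replicate 3 (-0.32, adjusted p = 0.00640) and with the correction for GC content and length (-0.20, adjusted p = 0.0444). Of its exon bases, 11.3% are shared with *Acaa1a*, and whether the counting split these reads by strand is not given in the sources used here.

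*Ticam1*, which encodes the adaptor TRIF of the interferon branch, had 21.2, 17.5 and 19.0 CPM in MTC and 20.3, 23.4 and 21.7 CPM in MTC-R. The lines overlapped, with a log2 fold change of 0.18 (95% interval -0.07 to 0.43, adjusted p = 0.242). The ratio of *Myd88* to *Ticam1* RNA per kb was 2.50, 2.80 and 2.43 in MTC and 2.08, 1.77 and 2.02 in MTC-R, without overlap (exact permutation p = 0.1, the smallest possible).

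Downstream of MyD88, *Irak1*, the kinase released from the receptor complex, had 126, 134 and 134 CPM in MTC and 116, 110 and 113 CPM in MTC-R. Every MTC-R library lay below every MTC library. The log2 fold change of -0.21 (SE 0.06, 95% interval -0.36 to -0.07, adjusted p = 0.0364) was called, and it kept its direction in all 14 alternatives but the call in 7. The call was lost with the library size alone (adjusted p = 0.0774), with no filter on low counts (0.0548), with the replicate number as a block (0.0752), without MTC replicate 2 (0.123) and without MTC-R replicate 1, 2 or 3 (0.105, 0.17 and 0.138). *Traf6*, the ubiquitin ligase that IRAK1 engages, had 35.7, 38.3 and 47.1 CPM in MTC and 42.5, 45.1 and 44.1 CPM in MTC-R. MTC replicate 3 was the highest of the 6, and the lines overlapped. Without it the log2 fold change was 0.20 (adjusted p = 0.0513). The log2 fold change of *Traf6* was 0.12 (95% interval -0.14 to 0.39, adjusted p = 0.455) and took the other sign, at -0.04, with the correction for GC content and length.

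The feedback inhibitors differed from each other. *Tnfaip3* (chr10:19000910-19015657, minus strand, GRCm38) encodes A20, which removes the ubiquitin chains made by TRAF6, and had 123, 103 and 111 CPM in MTC and 83.6, 79.1 and 83.8 CPM in MTC-R. The lines were far apart. The log2 fold change was -0.45 (SE 0.08, 95% interval -0.64 to -0.26, adjusted p = 0.00633), 1.37-fold lower, the largest change of the 10. It was the only one of the 4 calls that held in all 14 alternatives, from -0.52 to -0.38, with an adjusted p of at most 0.0420. Its surroundings were also low: the 9 other tested genes within 1 Mb had a median log2 fold change of -0.38 with 5 of them called lower, and chromosome 10 as a whole had a median of -0.18. *Tnfaip3* was not alone in this: the 16 neighbours of *Nfkbia* had a median of -0.20 with 5 called lower. Chromosome 4, which holds *Tlr4*, had a median of 0.20. *Cd14* fell on chromosome 18, where the median was 0.18, and *Tlr2* rose with 8 neighbours at a median of -0.18. The part of position in these results was not tested.

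*Nfkbia* (chr12:55489410-55492647, minus strand, GRCm38), which encodes the inhibitor that holds NF-kB in the cytoplasm, had 43.9, 45.9 and 42.1 CPM in MTC and 41.0, 42.5 and 41.0 CPM in MTC-R. The lines overlapped, and the log2 fold change of -0.08 had a narrow 95% interval, from -0.25 to 0.08 (adjusted p = 0.415). The ratio of *Tnfaip3* to *Nfkbia* per kb was 0.999, 0.801 and 0.939 in MTC and 0.728, 0.664 and 0.730 in MTC-R. These values did not overlap (exact permutation p = 0.1, the smallest possible), and both genes carry the recognition letters in the windows shown above.

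**Figure D3:**
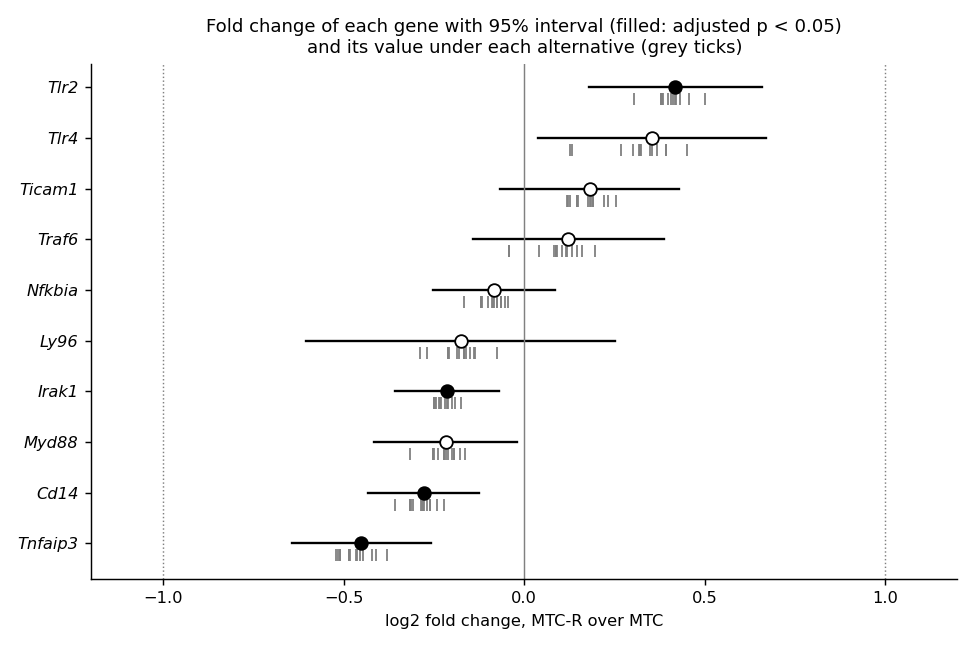
Log2 fold change of each gene, MTC-R over MTC (circles, filled where the adjusted p is below 0.05), with its 95% interval (line) and its value under each of 14 alternatives (grey ticks), and dotted lines at 1 and -1. All values lie between the dotted lines, and only *Traf6* has ticks on both sides of 0.

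The rest of the pathway was described by 7 lists with 112 genes, of which 89 were tested. Of these 89, 15 were higher in MTC-R, 11 were lower and 63 were not called, with a median log2 fold change of 0.10. The share called, 29.2%, stands beside 29.7% of all tested genes, so the number of calls is no result about the pathway. As for the members, the lists were chosen with earlier results of these data known.

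Among 17 other Toll-like receptor and co-receptor genes, 8 were tested, 1 rose and none fell, with a median of 0.19. *Tlr5*, the flagellin receptor, was the one that rose, from 14.7 ± 1.98 to 21.3 ± 0.99 CPM (log2 fold change 0.53, SE 0.12, adjusted p = 0.0137), and it is named after its values were seen. *Tlr3*, the receptor for double-stranded RNA, had the most RNA of the receptors in this list, with 67.6, 75.6 and 123 CPM in MTC and 89.7, 97.7 and 98.7 CPM in MTC-R, which overlapped. Without MTC replicate 3, its highest library, *Tlr3* was called higher (0.36, adjusted p = 0.00282). *Hsp90b1*, a chaperone of many but not all Toll-like receptors, had 264 ± 62.7 and 280 ± 4.72 CPM (adjusted p = 0.718), and its partner *Cnpy3* 41.2 ± 5.28 and 41.3 ± 0.40 CPM (adjusted p = 0.983). Without MTC replicate 3, *Hsp90b1* was called higher (0.24, adjusted p = 0.00119), and *Cnpy3* had a log2 fold change of -0.15 (adjusted p = 0.0953).

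The interleukin-1 family signals through the same MyD88, IRAK and TRAF6 proteins. Of its 12 listed genes 9 were tested, 4 fell and none rose, with a median of -0.16. *Il18* had 13.2, 16.6 and 16.6 CPM in MTC and 4.74, 5.50 and 4.34 CPM in MTC-R, with a log2 fold change of -1.67 (SE 0.15, adjusted p = 0.000272). *Il33*, an alarmin of epithelial nuclei, had 82.3, 113 and 120 CPM in MTC and 40.8, 40.0 and 37.2 CPM in MTC-R, which gives a log2 fold change of -1.42 (SE 0.14, adjusted p = 0.000507). Both cytokine genes kept their call in all 14 alternatives. The other members that fell were the receptor antagonist gene *Il1rn* (-0.26, adjusted p = 0.0211) and, named after its values were seen, the receptor subunit gene *Il18rap* (-0.46, adjusted p = 0.0155).

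Between the receptors and the kinase TAK1, 14 further adaptor, kinase and ubiquitin enzyme genes were listed. Of the 12 tested, 2 fell and none rose, with a median of -0.12. The members with the most RNA were *Ube2n*, the ubiquitin-conjugating partner of TRAF6 (146 ± 6.60 and 134 ± 2.69 CPM, adjusted p = 0.179), *Tab2* (96.6 ± 15.9 and 98.1 ± 1.73 CPM, adjusted p = 0.903) and *Traf3* (96.0 ± 11.1 and 83.5 ± 2.46 CPM, adjusted p = 0.149). *Ube2n* was called lower without MTC replicate 3 (-0.15, adjusted p = 0.0429), and *Traf3* without MTC replicate 1 (-0.27, adjusted p = 0.0311). Those that fell, named after their values were seen, were the kinases next to IRAK1, *Irak2* (-0.46, SE 0.09, adjusted p = 0.00778) and *Irak4* (-0.49, SE 0.10, adjusted p = 0.00856). *Irak2* kept its call in all 14 alternatives and *Irak4* in 13. *Ticam2*, the bridging adaptor between TLR4 and TRIF, was listed at 0 counts in every library, and since 14.5% of its exon bases are shared with *Tmed7* the way of counting can bear on that value.

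The 16 genes of the IKK complex, the NF-kB subunits and the interferon regulatory factors were all tested. In MTC-R 5 were higher and 1 was lower, with a median of 0.25. *Nfkbie*, which encodes the inhibitor IkBe, had 8.93, 7.84 and 7.06 CPM in MTC and 16.4, 16.7 and 17.2 CPM in MTC-R, and the log2 fold change of 1.08 (SE 0.11, adjusted p = 0.000635) was called in all 14 alternatives. Of the subunit genes with the most RNA, 1 was called, in 9 of 14 alternatives, and differences between these genes were not tested. *Nfkb2*, named after its values were seen, rose (107 ± 17.5 to 142 ± 3.00 CPM, 0.40, adjusted p = 0.0342), whereas *Nfkb1* had 245 ± 1.33 and 269 ± 1.23 CPM (0.13, adjusted p = 0.0909) and *Rela* 133 ± 16.8 and 130 ± 2.17 CPM (-0.03, adjusted p = 0.830). Without MTC replicate 3, *Rela* was called lower (-0.17, adjusted p = 0.0317). The others called, named after their values were seen, were *Rel* (0.79), the kinase genes *Ikbkb* (0.42) and *Ikbke* (0.34), and *Ikbkg*, the regulatory subunit of the IKK complex, which was lower (-0.43). Adjusted p-values were 0.0130, 0.00186, 0.0259 and 0.00902, respectively.

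None of the 11 genes of the mitogen-activated protein kinase branch passed edgeR's main test or DESeq2's, 1 had an unadjusted p below 0.05 in edgeR, and the median was 0.04. In other edgeR fits with all libraries, 1 was called higher with the library size alone. With the correction for GC content and length, 1 was called higher and 1 lower. The 3 with the most RNA were *Mapk14*, which encodes p38 alpha (121 ± 4.39 and 132 ± 1.90 CPM, adjusted p = 0.156), *Map2k4* (adjusted p = 0.860) and *Map2k3* (adjusted p = 0.719), which was called lower without MTC replicate 3 (-0.17, adjusted p = 0.0257). Of 17 negative regulators other than the members 15 were tested, 2 rose and 1 fell, with a median of 0.13. *Otud7b*, a deubiquitinase related to A20, had 536 ± 53.3 CPM in MTC and 449 ± 3.39 CPM in MTC-R (-0.26, adjusted p = 0.0474). This call, the only fall in the list, held in 8 of 14 alternatives. *Tnip1*, whose product binds A20, had 181 ± 13.2 and 174 ± 2.80 CPM (adjusted p = 0.546), and *Cyld*, another deubiquitinase, 94.3 ± 25 and 133 ± 2.97 CPM (adjusted p = 0.0741). Without MTC replicate 3, *Tnip1* was called lower (-0.17, adjusted p = 0.0106) and *Cyld* higher (0.68, adjusted p = 2.65e-05). Those that rose, named after their values were seen, were *Zc3h12a*, which encodes the ribonuclease regnase-1 (20.0 ± 0.44 to 34.1 ± 0.94 CPM, 0.77, SE 0.08, adjusted p = 0.000453), and *Tnip3* (0.28, adjusted p = 0.0380), whose call held in 4 of 14 alternatives.

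**Figure D4:**
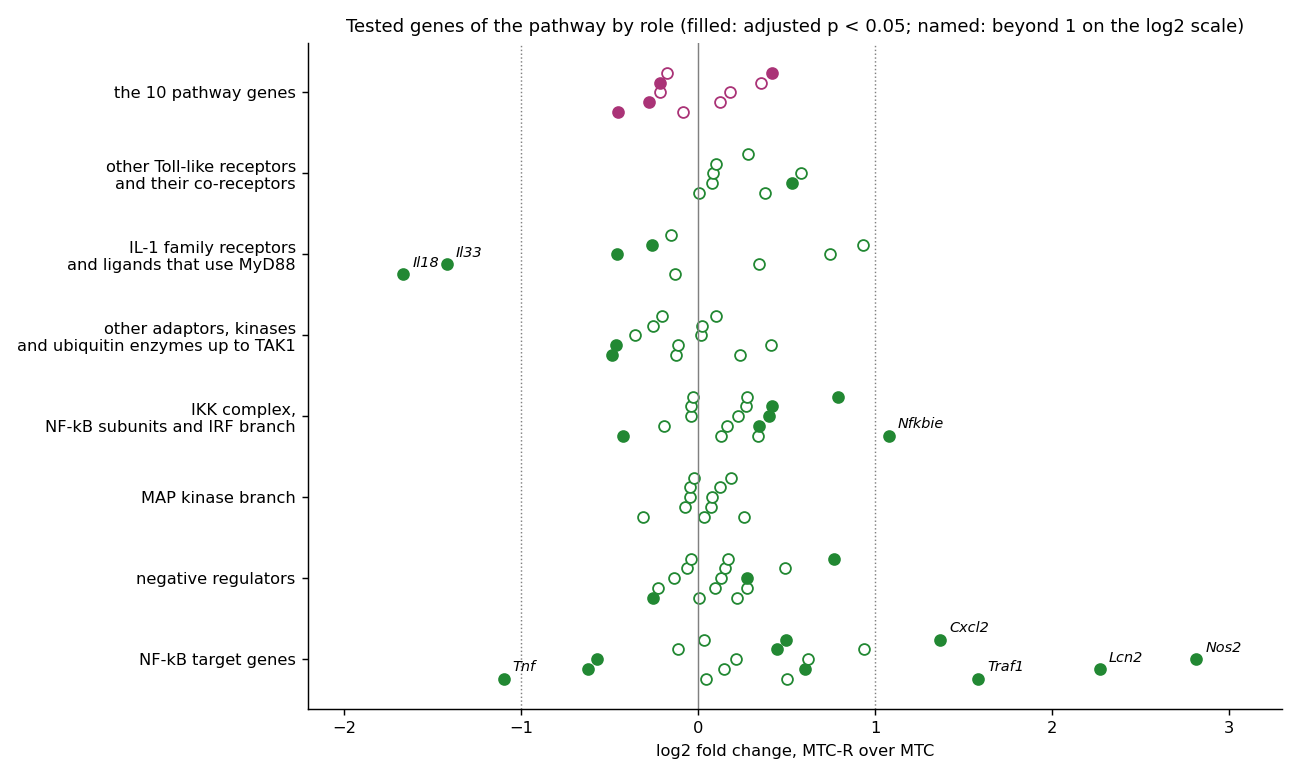
Log2 fold change, MTC-R over MTC, of every tested gene of the 10 pathway genes (purple) and of the 7 further lists (green), filled where the adjusted p is below 0.05. The 10 pathway genes stay within 0.45 of 0, whereas *Nos2*, at 2.81 on few counts, *Lcn2*, at 2.27, and *Il18*, at -1.67, lie far from it.

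At the end of the pathway, 25 NF-kB target genes were listed and 18 tested, of which 7 rose and 3 fell, with a median of 0.47, beside 14.1% and 15.6% of all tested genes. *Lcn2*, which encodes the siderophore-binding protein lipocalin-2, had 35.4, 56.0 and 51.5 CPM in MTC and 238, 224 and 228 CPM in MTC-R, 4.83-fold higher (log2 fold change 2.27, SE 0.16, adjusted p = 0.000172). *Traf1*, a signalling adaptor of the tumour necrosis factor receptors, had 21.5, 13.7 and 13.9 CPM in MTC and 48.3, 50.1 and 48.4 CPM in MTC-R (1.58, SE 0.18, adjusted p = 0.000770). *Cxcl2*, a neutrophil chemokine gene, had 21.7, 12.6 and 13.3 CPM in MTC and 40.8, 41.9 and 40.1 CPM in MTC-R (1.37, SE 0.20, adjusted p = 0.00325). All 3 genes were called in all 14 alternatives, and in none of them did the lines overlap.

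The targets did not move as a block. *Tnf*, a cytokine gene that TLR4 signalling induces, had 9.88, 5.26 and 5.81 CPM in MTC and 3.42, 3.29 and 3.03 CPM in MTC-R, 2.14-fold lower (SE 0.26 on the log2 scale, adjusted p = 0.0171). The lines did not overlap, and the call held in 11 of 14 alternatives but not without MTC-R replicate 1, 2 or 3 (adjusted p = 0.0596, 0.0647 and 0.0692). MTC replicate 1 was the highest of the MTC libraries for *Tnf*, *Traf1* and *Cxcl2*. The genes for the adhesion molecules *Icam1* (-0.57, adjusted p = 0.0113) and *Vcam1* (-0.62, adjusted p = 0.000952) also fell, named after their values were seen. Further rises, also named after their values were seen, were those of the chemokine gene *Cxcl5* (708 ± 63.5 to 1001 ± 17.1 CPM, adjusted p = 0.00340) and of *Ptgs2*, which encodes cyclooxygenase-2 (203 ± 43.6 to 309 ± 9.79 CPM, adjusted p = 0.0260). *Sod2* (0.45, adjusted p = 0.00611) and *Nos2*, which stayed at 1.07 CPM or less, complete the 7 and are named after their values were seen. *Ier3*, named in the same way, had 210, 92.1 and 83.6 CPM in MTC and 156, 151 and 140 CPM in MTC-R (adjusted p = 0.665). MTC replicate 1 was the highest here too, and without it *Ier3* was called higher (0.76, adjusted p = 0.000564). The letters GGNNNTTCC stood in 11 of the 18 windows matched for this list (61.1%), some of which belong to genes that were not tested. Of the genes called higher, *Lcn2*, *Traf1*, *Ptgs2* and *Sod2* had none and *Cxcl2* had 2 matches. Of those called lower, *Tnf* had 1 and *Icam1* had 2. No window was matched for *Nos2*, *Cxcl5* or *Vcam1*.

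**Figure D5:**
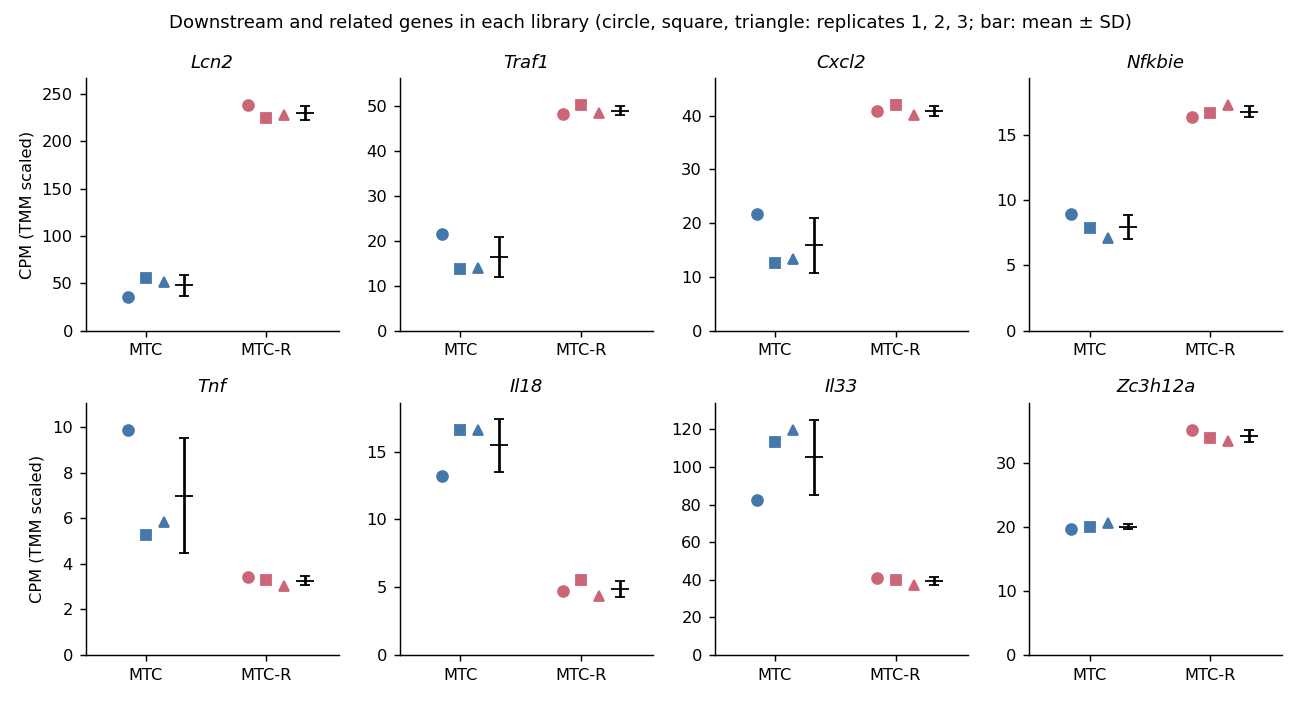
CPM in the 3 MTC (blue) and 3 MTC-R (red) libraries of 8 genes of the further lists, with mean and SD as a black bar and axes from 0. *Lcn2*, *Traf1*, *Cxcl2*, *Nfkbie* and *Zc3h12a* are higher in every MTC-R library, and *Tnf*, *Il18* and *Il33* are lower in every one.

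Of the 26 list genes called, 12 kept the call in every alternative that could be run on them, namely *Il18*, *Il33*, *Irak2*, *Ikbkb*, *Nfkbie*, *Zc3h12a*, *Cxcl2*, *Cxcl5*, *Vcam1*, *Nos2*, *Lcn2* and *Traf1*. The other 14 lost it in at least 1. Without MTC replicate 2 the calls lost were 7, and without MTC-R replicate 1, 2 or 3 they were 12, 11 and 10. In the IKK and NF-kB list 2 genes were higher without MTC replicate 2, MTC-R replicate 1 or MTC-R replicate 3, and 3 without MTC-R replicate 2, in place of 5, and in the interleukin-1 family list 2 were lower without any one MTC-R library, in place of 4. In the NF-kB target list 1 gene was lower without MTC-R replicate 1 or 2, in place of 3. Without MTC replicate 3, 6 negative regulators were higher and 2 lower, in place of 2 and 1, and 3 other Toll-like receptor and co-receptor genes were higher, in place of 1. Without MTC replicate 1, 5 of the further adaptor and kinase genes were lower, in place of 2, and 2 of the mitogen-activated protein kinase branch were higher, in place of 0. The median of the negative regulators was -0.02 without MTC replicate 3, and that of the kinase branch -0.01 without MTC-R replicate 1. With the correction for GC content and length, 5 of the further adaptor and kinase genes were lower in place of 2. *Sod2* and *Ptgs2* also depended on the correction for GC content and length, which left log2 fold changes of 0.15 (adjusted p = 0.519) and 0.32 (adjusted p = 0.197).

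For the receptor and the co-receptor, the tested genes with the most similar profile over the 6 libraries were found by the Euclidean distance between gene-centred log2 CPM. For *Tlr4* these were *Znrf2*, *Tgfb2* and *Nlk*, at distances of 0.080, 0.085 and 0.087. For *Cd14* they were *Scamp2*, *Ostf1* and *Sdc4*, at 0.052, 0.057 and 0.068. With 6 libraries and a difference between the lines shared by many genes, this is a description of the profiles only.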

How the data were processed

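RNA of the lines MTC and MTC-R was sequenced from poly-A selected libraries, 3 per line. Per the labels the authors cleaned reads with fastp 0.22.0. They aligned the reads by HISAT2 and deposited raw read counts per gene, not normalized and not pooled, in a series table that equals the 6 sample tables. The counting tool, annotation, genome release and use of strand are not given in the sources used here. From the deposited counts, libraries were scaled by TMM, filtered with filterByExpr (minimum count 10) and tested by robust quasi-likelihood fits in edgeR 4.0.16 (R 4.3.3) on 11795 genes, with Benjamini-Hochberg adjustment over all of them. CPM use the TMM-scaled library size. Ensembl identifiers gave lengths, GC content and positions in GENCODE M21 (GRCm38), and promoter sequences from RefSeq (GRCm38.p6). The tests were tried on simulated data in which each gene had the same spread in both lines. The real MTC libraries differed more among themselves than the MTC-R libraries, so the trial does not give the error rate in these data. The 14 alternatives comprised DESeq2 1.42.0, other size factors, other filters, the replicate number as a block, a correction for GC content and length, and each library left out.

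The 10 members and the gene lists were chosen with earlier results of these data known. Named from each list were genes with an adjusted p below 0.05, an absolute log2 fold change above 1 and at least 1 CPM in the higher line, and, where fewer than 3 qualified, those with the largest mean CPM up to 3. Pathway genes outside that rule are marked as named after their values were seen, except *Ticam2*. Cell type markers outside it, such as *Bhlha15*, are named without that mark.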

Additional observations from a re-analysis of the deposited data

How the results depend on the processing

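Over the 10 genes and 14 alternatives, 123 fold changes stayed on the same side of the threshold, 14 lost the call and 3 gained it. The members called were 1 higher and 3 lower, and 1 higher with 2 to 4 lower in the alternatives that kept all libraries. Without 1 library each, 0 to 2 were higher and 1 to 4 lower, and the genes called overall ranged from 803 to 3020 higher and from 1077 to 3227 lower, against 1668 and 1841. The lowest counts came without MTC-R replicate 1 (803 higher) and without MTC-R replicate 2 (1077 lower), the highest without MTC replicate 3, and without MTC replicate 2 there were 934 and 1222. The correction for GC content and length called 2829 genes lower, or 2833 together with the replicate block. With the library size alone the split was 1996 higher and 1620 lower, and the median log2 fold change of all genes 0.08. Same-numbered libraries correlated in their deviations at 0.151, -0.0227 and 0.173, so the numbers were not taken to pair the samples, and not every library correlated best with its own number. The replicate block called 1787 genes higher and 1717 lower, with 1 member higher and 2 lower, *Irak1* being the call lost (adjusted p = 0.0752). With DESeq2, 1 member was higher and 3 were lower. The causes were not tested. Of the 10 genes *Ly96* had the fewest reads, 55 to 85 counts per library, and the widest interval.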
